A study of Mus musculus with 12 samples.

Results

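Of the 770 genes counted in sorted mouse microglia, 57 were picked from those whose proteins write, erase or read histone and DNA modifications or move nucleosomes. The rule that picks them reads gene symbols only, though the topic was chosen with earlier results of these data known, and they comprise 15 histone demethylases, 9 methyltransferases of histone H3 lysines 4, 36 and 79 with the partners of these enzymes, 4 methyltransferases of lysine 9, 5 subunits of Polycomb repressive complex 2, 3 acetyltransferases, 6 proteins of DNA methylation and 4 subunits of nucleosome remodelers, besides deacetylases, sirtuins and corepressor scaffolds and bromodomain readers of the BET family.

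DNA in the nucleus is wound around histones, and enzymes add acetyl or methyl groups to the histone tails or remove them. Acetylation and methylation of H3 lysine 4 mark active promoters and enhancers, whereas methylation of lysines 9 and 27 and of cytosines in DNA is linked to repression. In microglia, the resident macrophages of the CNS, such enzymes are known to take part in inflammatory gene induction and in keeping microglial identity.

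Microglia of aged mice, over 80 weeks old, were sorted by phosphorylation of the kinases ERK1 and ERK2 into P-ERK1/2 High (samples 2, 5, 7 and 8) and P-ERK1/2 Low (samples 3, 6, 9 and 12) and set beside unsorted adult microglia from mice of 12 to 20 weeks, a mixture of all ERK1/2 states (samples 1, 4 and 10). All mice are labelled C57B6 and untreated. By the study's methods each sample pooled the CNS of a male and a female, and CD11b-selected cells were fixed, permeabilized and gated as YFP+, CD45 intermediate and Ly6G-, which is sorting by a fluorescent protein expressed from *Cx3cr1*. The study's Cre mice are hemizygous for a tamoxifen-inducible Cre at *Cx3cr1* and its legend speaks of tamoxifen, whereas the labels name no allele and no treatment. By that legend far more time had passed since tamoxifen in the aged than in the adult mice. Age and time since tamoxifen thus cannot be told apart in the comparisons with adult samples. RNA was counted without amplification on the NanoString nCounter with 1 probe per gene, so a value is compared between samples and never between genes. The labels do not say which High and Low samples came from the same animals, and p-values measure the spread between these pooled samples. In bulk samples a lower share of cells that express a gene and less of its RNA per cell cannot be told apart.

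The total count was 650965 to 1539936 in the High samples, 123798 to 157209 in the Low samples and 137980 to 326575 in the adult samples, so the lowest High total lay above every other kept total, and depth and P-ERK1/2 state cannot be told apart. The authors scaled each sample to the same geometric mean of 13 housekeeping genes. A member was taken as above background when its count exceeded the mean plus 2 SD of the sample's 8 negative control probes, which held for 50 to 55 members in each High sample, 35 to 45 in each Low sample and 42 to 51 in each adult sample. *Dnmt3b*, *Ezh1*, *Hdac6*, *Jarid2*, *Kdm1b*, *Kdm3b*, *Kdm4d*, *Kdm5d*, *Suv39h2* and *Tet1* were above background in no Low sample, and *Dnmt3b*, *Kdm3b*, *Kdm4d*, *Kdm5d*, *Suv39h2* and *Tet1* in no adult sample. Another adult sample, number 11, is labelled as excluded for poor quality. Its total was 1464449 counts, 16 of its 770 gene values are listed at 1, and it enters no main comparison. The microglial marker genes *P2ry12*, *Tmem119*, *Csf1r*, *Cx3cr1* and 9 others were above background in all High samples, whereas 7 of the 13 were in all Low samples and 10 of the 13 in all adult samples.

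The promoters of a few members are shown because these genes carried the main contrasts in the values: *Kdm4d* was called higher in High over Low, where no Low sample was above background and its rise has only a lower bound, and *Suz12* and *Eed*, core subunits of 1 complex, moved in opposite directions. Each line holds the 250 bases before the start given for the gene in a table of RefSeq promoters on GRCm38.p6, 5′ to 3′ in the direction of transcription, with CCGGAA on either strand in capitals. This is the core of sites for ETS factors, a family that includes known substrates of ERK1/2. The windows are chr9:14500483-14500732 (minus strand) for *Kdm4d*, chr11:79992856-79993105 (plus strand) for *Suz12* and chr7:89980977-89981226 (minus strand) for *Eed*. The start given is the outer end of the annotated gene for *Suz12* and *Eed*, while 40 bases of the *Kdm4d* window lie inside the gene.
Kdm4d: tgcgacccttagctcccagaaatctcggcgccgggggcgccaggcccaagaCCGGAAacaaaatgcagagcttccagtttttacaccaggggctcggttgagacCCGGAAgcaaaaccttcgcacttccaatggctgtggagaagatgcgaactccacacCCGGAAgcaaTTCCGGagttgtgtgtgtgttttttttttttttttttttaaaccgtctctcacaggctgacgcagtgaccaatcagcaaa
Suz12: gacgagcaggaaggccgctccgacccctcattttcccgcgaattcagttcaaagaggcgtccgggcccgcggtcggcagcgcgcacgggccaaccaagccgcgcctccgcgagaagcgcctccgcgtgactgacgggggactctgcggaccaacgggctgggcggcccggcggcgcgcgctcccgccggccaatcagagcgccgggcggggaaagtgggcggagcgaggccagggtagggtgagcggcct
Eed: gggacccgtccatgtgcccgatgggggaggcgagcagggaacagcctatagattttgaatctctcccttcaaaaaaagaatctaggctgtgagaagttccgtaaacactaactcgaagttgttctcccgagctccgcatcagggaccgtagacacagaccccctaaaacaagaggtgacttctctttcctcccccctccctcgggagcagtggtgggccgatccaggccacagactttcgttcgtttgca

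*Kdm4d* held 4 copies of the core, whose first bases lay at -199, -146, -90 and -80 from the start given in that table. The window of *Setdb1*, which was not called in High over Low, held 3 copies. None was found in the *Suz12* and *Eed* windows. A promoter was listed for 47 of the 57 members, with *Ash2l*, *Hdac1*, *Kdm2a*, *Kdm3b*, *Kdm4b*, *Kdm5a*, *Mbd2* and *Setd1b* among those without, and 9 of the 47 (19.1%) held the core, against 96 of 601 (16.0%) for the panel genes and 12.2% of all 27025 promoters in the table. Among members called higher in High over Low, 4 of 18 windows held it (*Arid1a*, *Hat1*, *Kdm2b* and *Kdm4d*), among those called lower 0 of 4, and among the rest 5 of 25 (*Brd3*, *Dot1l*, *Kmt2a*, *Setdb1* and *Smarcd1*). TGANTCA, bound by AP-1, was found in 2 of 47 member windows (4.26%, against 6.86% of all), and TGACGTCA, the cyclic AMP response element, in 1 (2.13%, against 1.61% of all). The member windows were rich in CG dinucleotides, with a median of 20, against 12 for the panel and 6 for all promoters. The medians for members called higher, called lower and not called were 20.5, 19.5 and 18. Of the 47 windows 19 end at the outer end of the annotated gene. The others follow another start of the table, the first listed where it gives several, so that the *Kdm2b* window, from 1 of 4 starts, lies inside the gene. These are counts of letters and no evidence of binding.

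Differences were fitted by limma over all 770 genes after taking log2 of the value plus 1. Calls needed a p below 0.01 together with a change of more than 1 on the log2 scale. On this scale the change of a low gene is understated. With P-ERK1/2 High set against Low (n = 4 each), 21 of the 57 members (36.8%) were called higher in High, where 28.2% of all genes were, and 4 (7.02%) lower, where 9.61% of all genes were. Among the 21 were *Arid1a*, *Brd2*, *Dnmt3a*, *Ep300*, *Hat1*, *Kdm1a*, *Kdm2b*, *Kdm3a*, *Kdm4b*, *Kdm4d*, *Kdm5b*, *Kdm6a*, *Kmt2c*, *Setd1b*, *Setd2*, *Sin3a*, *Sirt1*, *Suv39h2*, *Suz12* and *Wdr5*, and the 4 were *Smarca5*, *Eed*, *Smarca4* and *Ezh1*. High and Low values did not overlap for 32 members (56.1%), against 49.4% of all genes. The median log2 fold change was 0.40 over the members and 0.26 over all genes.

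**Figure D1:**
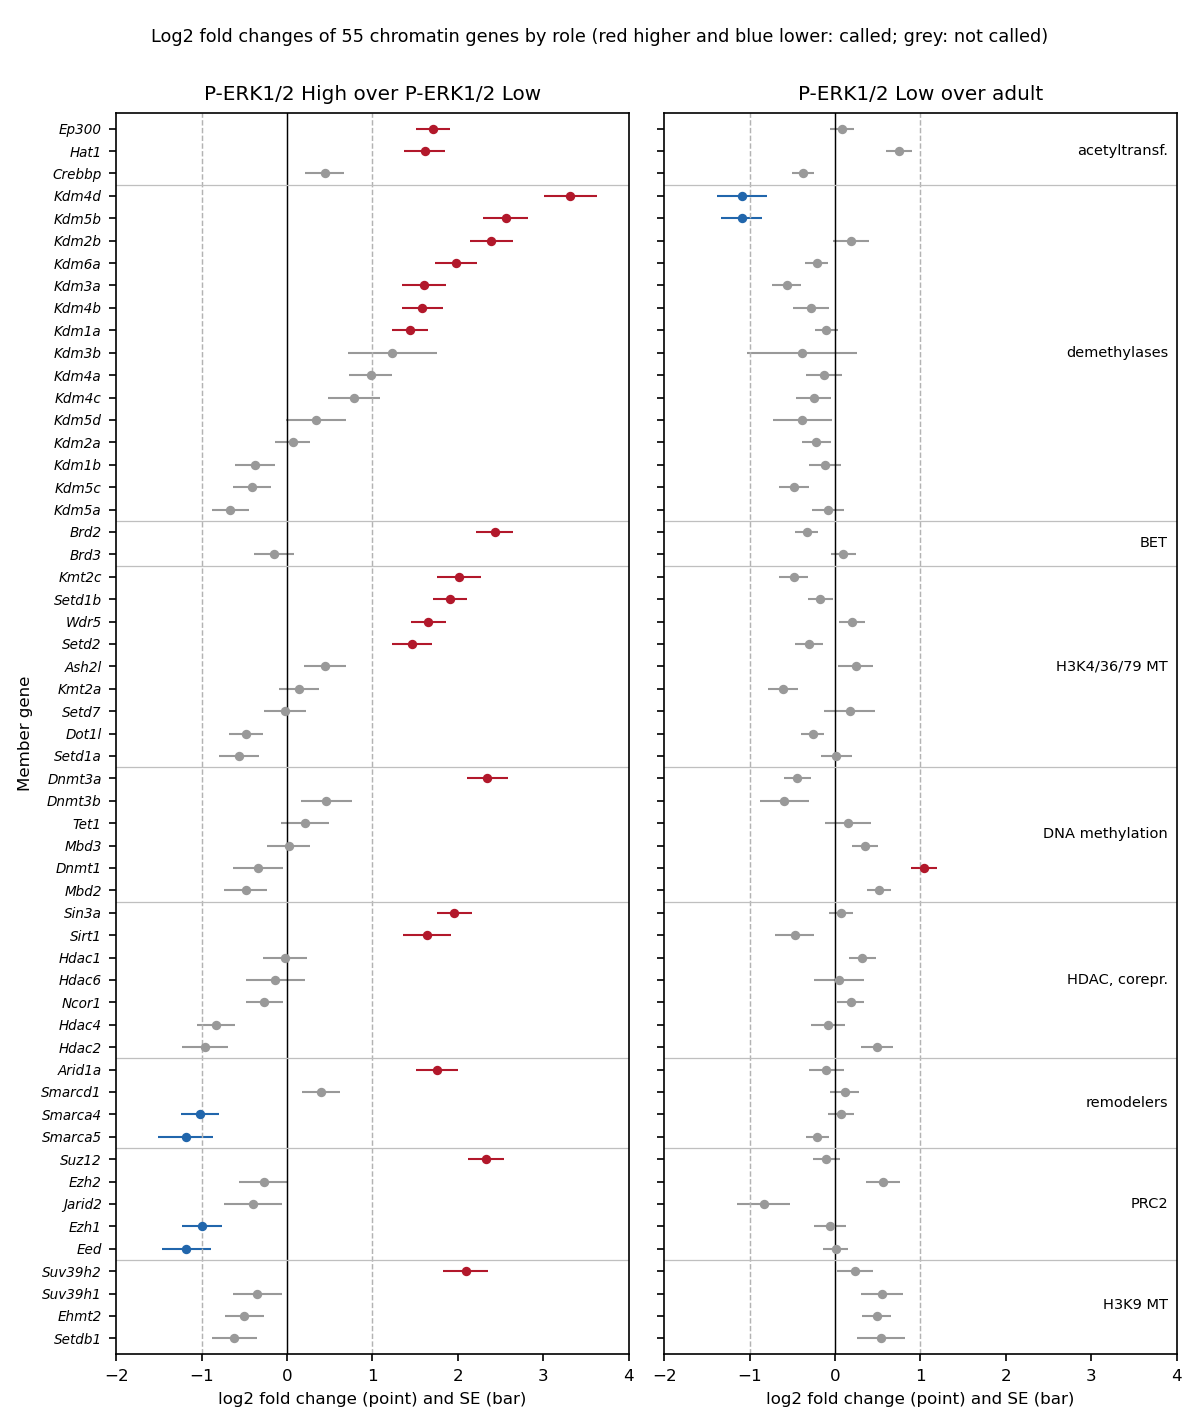
Log2 fold change (point) with its SE (bar) of 55 genes, grouped by role, for P-ERK1/2 High over Low (left, n = 4 each) and Low over adult (right, n = 4 and 3). Red points were called higher and blue points lower, grey points were not called, and the dashed lines mark a log2 fold change of 1 in either direction: 24 of the genes plotted were called on the left and 3 on the right.

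Of the 15 demethylases, which remove methyl groups from histone lysines, 7 were called higher in High over Low (46.7%, against 28.2% of all genes) and 0 lower. *Kdm4d*, a demethylase of H3K9, had normalized values of 113, 210, 244 and 101 in High samples 2, 5, 7 and 8, and of 20.3, 14.02, 13.4 and 12.3 in Low samples 3, 6, 9 and 12. Its adult values were 43.1, 19.8 and 39.5 in samples 1, 4 and 10. Every High value lay above every other, but no Low or adult value exceeded background. The log2 fold change of High over Low was 3.32 (SE 0.31, adjusted p = 1.0e-05), and against the background of the Low samples the rise was at least 1.59-fold.

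*Kdm5b*, which removes methyl groups from H3K4, had values of 391, 575, 667 and 495 in High, 67.8, 123, 69.6 and 103 in Low, and 179, 222 and 168 in adult samples. The 3 groups did not overlap, with Low at the bottom and High at the top, and 2 of the 4 Low values were above background. The log2 fold change of High over Low was 2.56 (SE 0.27, adjusted p = 1.57e-05). *Kdm2b*, a demethylase of H3K36 that also recruits a Polycomb complex to unmethylated CpG islands, had 390, 778, 532 and 546 in High, 84.7, 116, 96.3 and 119 in Low, and 81.7, 75.7 and 119 in adult samples. Low and adult values overlapped, and High stood above both (log2 fold change over Low 2.39, SE 0.25, adjusted p = 1.61e-05).

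The other demethylases called higher were *Kdm6a*, an X-linked eraser of H3K27 methylation (435 ± 140 in High against 106 ± 3.77 in Low, where 1 of 4 samples was above background, SD, n = 4 each, log2 fold change 1.98), the erasers of H3K9 methylation *Kdm3a* (392 ± 121 against 126 ± 20.3) and *Kdm4b* (257 to 371 against 74.5 to 130, log2 fold change 1.58), and *Kdm1a*, the flavin-dependent demethylase LSD1 (1.44). *Kdm5a* and *Kdm5c*, which share the H3K4 activity of *Kdm5b*, had log2 fold changes of -0.67 and -0.41 and were not called. *Kdm2a* (0.07), *Kdm4a* (0.98) and *Kdm4c* (0.78) were not called either, nor were *Kdm1b*, *Kdm3b* and the Y-linked *Kdm5d*, which were above background in 2 of 4 High samples and in no Low sample and for which no fold is given. All High values of *Kdm4a* lay above all Low values. Its count ratio to *Kdm4b*, which was above background in 3 of 4 Low samples, overlapped between High and Low. The ratios of *Kdm4b* to *Kdm4c* and of *Kdm3a* to *Kdm3b* overlapped as well. These overlaps say little, since *Kdm4c* was above background in 1 of 4 Low samples and *Kdm3b* in no Low sample.

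Among the 9 genes of H3K4, H3K36 and H3K79 methylation, 4 were called higher (44.4%, against 28.2% of all genes) and 0 lower. *Kmt2c*, a methyltransferase of enhancer H3K4, was at 623 ± 202 (SD, n = 4) in High and 147 ± 6.54 (SD, n = 4) in Low, a log2 fold change of 2.02 (SE 0.26, adjusted p = 7.04e-05). *Setd1b*, a catalytic subunit of a COMPASS complex that methylates H3K4, was at 652 ± 61.6 against 173 ± 12.9 (1.91), *Wdr5*, a scaffold that all COMPASS-type complexes share, at 489 ± 72.6 against 153 ± 6.48 (1.66), and *Setd2*, which trimethylates H3K36, at 916 ± 215 against 328 ± 48.3 (1.46). In each of these 4 genes all High values lay above all Low values. The paralogs *Kmt2a* (0.14) and *Setd1a* (-0.56), the COMPASS subunit *Ash2l* (0.45), the H3K79 methyltransferase *Dot1l* (-0.48) and *Setd7* (-0.02) were not called.

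Of the 4 H3K9 methyltransferases, which set a mark of repressed chromatin, *Suv39h2* alone was called, at 149, 278, 167 and 141 in High, 50.8, 35.1, 37.5 and 41.0 in Low, and 27.2, 33.8 and 44.5 in adult samples. The High values were the only ones above background, so its log2 fold change over Low of 2.09 (SE 0.26, adjusted p = 5.71e-05) stands for a rise of at least 1.81-fold. Its paralog *Suv39h1* had a log2 fold change of -0.35, and *Ehmt2*, which encodes G9a, and *Setdb1* of -0.50 and -0.62, none of them called. For *Ehmt2* all 4 High values, 339 to 557, lay below all 4 Low values, 586 to 763.

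Polycomb repressive complex 2 methylates H3K27 through *Ezh2* or *Ezh1*, with *Eed* and *Suz12* as core subunits and *Jarid2* as an accessory one. *Suz12* had 1208, 1503, 1360 and 1514 in High, 230, 266, 297 and 320 in Low, and 297, 318 and 277 in adult samples, so that all High values stood above the rest (log2 fold change over Low 2.33, SE 0.21, adjusted p = 7.4e-06). *Eed*, which binds the same methyl mark, had 173, 64.3, 125 and 127 in High, 281, 298, 241 and 234 in Low, and 265, 245 and 272 in adult samples. Here all High values lay below the rest, and *Eed* fell by 1.18 on the log2 scale (SE 0.29, adjusted p = 0.00497). Without High sample 5, the lowest, the difference was -0.90 and was not called.

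*Ezh1*, the catalytic subunit typical of resting cells, had 31.7, 47.9, 49.4 and 38.0 in High, 98.3, 84.1, 64.2 and 90.3 in Low, and 99.8, 78.0 and 84.0 in adult samples. All High values lay below the others, and the mean was 41.7 ± 8.41 (SD, n = 4) in High and 84.2 ± 14.5 (SD, n = 4) in Low, which just met the limit of a call (SE of the log2 difference 0.23, adjusted p = 0.0038 in limma), but no Low sample exceeded its own, higher background, so no fold is given, and the call was lost without any 1 of High samples 2 and 8 and Low samples 3, 6 and 12. *Ezh2*, the subunit typical of dividing cells, was at 147 ± 63.1 (SD, n = 4) in High and 168 ± 17.5 (SD, n = 4) in Low (-0.28) and *Jarid2* at 44.4 ± 14.6 and, with no sample above background, 58.7 ± 21.2, and neither was called.

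Among the deacetylases, sirtuins and corepressor scaffolds, 2 were called higher, a share below the 28.2% of all genes, and 0 lower. *Sin3a*, the scaffold that holds class I deacetylases, was at 722 ± 85.2 (SD, n = 4) in High and 184 ± 18.2 (SD, n = 4) in Low (log2 fold change 1.96, SE 0.20, adjusted p = 1.57e-05), and *Sirt1*, a NAD-dependent deacetylase, at 332 ± 107 and 105 ± 28.3 (1.64). *Hdac2*, one of the deacetylases that SIN3A binds, had 186, 86.5, 102 and 144 in High, 200, 284, 230 and 263 in Low, and 175, 203 and 143 in adult samples. Its High values lay below its Low values and overlapped with the adult ones, and the log2 fold change over Low of -0.96 (SE 0.27, adjusted p = 0.0101) was within the fold limit. *Hdac4* (-0.83, adjusted p = 0.00774) also had all High values below all Low ones, of which 1 of 4 was above background, while *Ncor1* (-0.26), *Hdac1* (-0.03) and *Hdac6*, above background in no Low sample, did not separate.

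Of the 3 acetyltransferases, *Ep300*, the coactivator p300, was at 1141 ± 150 (SD, n = 4) in High and 346 ± 4.73 (SD, n = 4) in Low (log2 fold change 1.71, SE 0.20, adjusted p = 3.65e-05) and *Hat1*, which acetylates newly made histone H4, at 1378 ± 373 and 438 ± 31.6 (1.61, SE 0.24, adjusted p = 2.63e-04). *Crebbp*, the paralog of *Ep300*, was not called (0.44). Of the BET proteins, which bind acetylated histones, *Brd2* had 2757, 3424, 4248 and 3501 in High, 644, 715, 618 and 583 in Low, and 740, 859 and 820 in adult samples. The groups did not overlap, and the rise over Low was 2.43 on the log2 scale (SE 0.21, adjusted p = 7.4e-06). *Brd3* ranged from 84.2 to 157 in High and from 112 to 144 in Low, a difference of -0.15 that was not called.

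In DNA methylation, *Dnmt3a*, a methyltransferase that sets new methyl groups on cytosine, had 390, 711, 664 and 590 in High, 102, 133, 102 and 115 in Low, and 163, 136 and 161 in adult samples. All High values lay above all others, with a log2 fold change over Low of 2.35 (SE 0.24, adjusted p = 1.51e-05), and 2 of the 4 Low values were above background. The maintenance enzyme *Dnmt1* (-0.34), the methyl-CpG binders *Mbd2* (-0.48) and *Mbd3* (0.02) and 2 genes above background in no Low sample, *Dnmt3b* and the dioxygenase *Tet1*, were not called.

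The 4 remodeler genes split. *Arid1a*, the DNA-binding subunit of the canonical BAF form of SWI/SNF, was at 672 ± 174 (SD, n = 4) in High and 197 ± 38.9 (SD, n = 4) in Low (log2 fold change 1.75, SE 0.25, adjusted p = 1.59e-04). *Smarca4*, the ATPase BRG1 of the same complex, had 296, 180, 238 and 248 in High, 437, 470, 479 and 546 in Low, and 417, 528 and 440 in adult samples. *Smarca5*, the ATPase of ISWI complexes, had 341, 124, 366 and 256 in High, 562, 578, 524 and 632 in Low, and 690, 610 and 687 in adult samples. For both ATPase genes all High values lay below all others, and High differed from Low by -1.02 (SE 0.22, adjusted p = 0.00242) and -1.19 (SE 0.32, adjusted p = 0.00804). High sample 5 was the lowest in both, and without it the changes of -0.89 and -0.85 were not called, nor was that of *Smarca4* without Low sample 12 (-0.96). *Smarcd1*, a further SWI/SNF subunit, was not called (0.40).

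**Figure D2:**
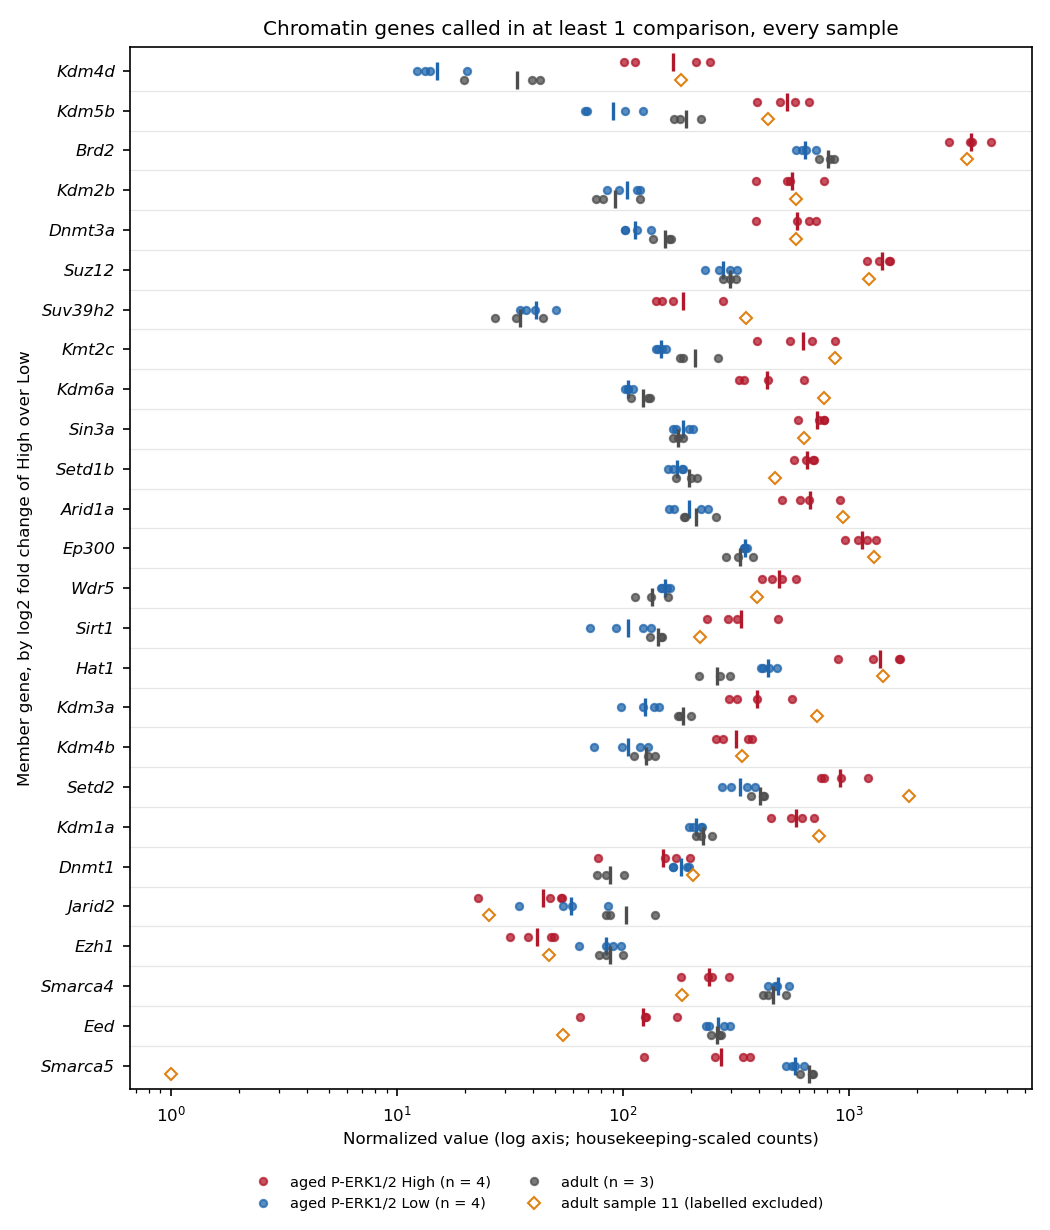
Normalized value (log axis) in every sample for 26 members called in at least 1 comparison, ordered by the log2 fold change of High over Low. Dots are samples, ticks are group means and open diamonds are adult sample 11, which was left out of the comparisons: it lies above the 3 kept adult samples for all 20 genes plotted that were called higher in High and below them for the 4 that were called lower in High over adult.

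Between P-ERK1/2 Low (n = 4) and the adult samples (n = 3), few members differed. *Dnmt1* was called higher in aged Low microglia, *Kdm4d* and *Kdm5b* were called lower, and the other 54 members were not called. The share called higher was 1.75% of the members against 8.05% of all genes, and the share called lower 3.51% against 2.73%. The groups did not overlap for 16 members (28.1%), against 36.5% of all genes, and the median log2 fold change was -0.08 over the members and 0.10 over all genes.

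*Dnmt1*, which copies DNA methylation onto new strands at replication, had 166, 193, 166 and 197 in Low and 77.1, 83.8 and 101 in adult samples, with no overlap (log2 fold change 1.04, SE 0.15, adjusted p = 0.00289). In High samples 2, 5, 7 and 8 it had 172, 199, 77.5 and 153, of which sample 7 lay at the adult level. A list of 14 proliferation genes moved in the same comparison, with 8 called higher in Low than in adult, where 8.05% of all genes were, 5 called higher in High over Low, where 28.2% were, and a summed value of 5019 to 6539 in Low, 2437 to 2677 in adult and 3802 to 10497 in High samples, and its part in the *Dnmt1* result was not tested. Without adult sample 1 or Low sample 12 the *Dnmt1* call was lost (0.96 without adult sample 1), as it was with sample 11 added (0.74), and its change was 0.65 at the total count and 0.19 without scaling. Besides leaving out samples, 10 of 20 alternatives lost the call, among them median of ratios (0.92), quantile normalization (0.89) and TMM (0.89). Subtraction of background also lost it, at a larger change of 2.18. *Dnmt1* was above background in 2 of 3 adult samples.

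*Kdm5b* was lower in Low than in adult samples by a log2 fold change of -1.09 (SE 0.24, adjusted p = 0.0134), with no overlap. The call was lost without Low sample 3 or 9 or adult sample 4, with values no closer to 0 than -0.97. *Kdm4d* passed the limits of a call (adjusted p = 0.0305 in limma), but its groups overlapped and none of the 7 values was above background, so no fold is given, and leaving out any 1 of 5 samples (adult 1 and 10, Low 6, 9 and 12) ended the call. Of the members not called, *Hat1* (0.75, adjusted p = 0.0107), *Mbd2* (0.51, adjusted p = 0.0328), *Kmt2a* (-0.61, adjusted p = 0.0337) and *Kdm3a* (-0.56, adjusted p = 0.0439) had an adjusted p under 0.05 in limma below the fold limit.

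Between P-ERK1/2 High (n = 4) and adult (n = 3), 21 members (36.8%) were called higher, where 29.2% of all genes were, and 4 (7.02%) lower, where 7.66% were. The groups did not overlap for 34 members (59.6%), against 50.3% of all genes, and the median was 0.37 over the members and 0.35 over all genes. The members called higher were those called against Low, a comparison that uses the same High samples. The largest fitted changes were those of *Kdm2b* (2.58, SE 0.30, adjusted p = 9.52e-05), *Hat1* (2.36), *Suv39h2* (2.32, at least 2.86-fold), *Kdm4d* (2.23, at least 2.52-fold) and *Suz12* (2.22). For *Hat1* the 3 groups were stepwise without overlap, at 262 ± 40.9 (SD, n = 3) in adult, 438 ± 31.6 (SD, n = 4) in Low and 1378 ± 373 (SD, n = 4) in High.

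Called lower in High than in adult were *Smarca5* (-1.40, SE 0.36, adjusted p = 0.0097), *Jarid2* (-1.24, SE 0.35, adjusted p = 0.0132), *Eed* (-1.17) and *Ezh1* (-1.06), so that 3 of the 4 were Polycomb genes. *Jarid2* had 47.5, 22.9, 53.9 and 53.2 in High and 138, 87.3 and 84.0 in adult samples, with no overlap, and 54.2, 59.6, 34.8 and 86.2 in Low samples, none of them above background. Its value of 22.9 in High sample 5 was below background as well. *Smarca4* (-0.95) missed the fold limit in this comparison. The calls of the 4 genes were not steady against leaving out a sample: without adult sample 1 *Jarid2*, *Eed*, *Ezh1* and *Smarca5* were all lost, without High sample 5 *Jarid2* and *Eed*, without High sample 2 *Ezh1*, and without adult sample 4 or 10 *Eed*. Among the rises, *Kdm3a* (1.04) was lost without adult sample 1, adult sample 4 or High sample 5 and *Sirt1* (1.17) without High sample 7.

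Adult sample 11, labelled as excluded for poor quality, had many member values near those of the High samples. It lay above the 3 kept adult samples for 40 of the 57 members (70.2%, against 58.6% of all genes) and below them for 14. For the 21 members called higher in High over adult it lay above every kept adult sample in all 21 and at or above the lowest High sample in 18. Over all genes called higher in that comparison it lay above the kept adult samples in 218 of 225 (96.9%). *Suz12* was at 1222 and *Brd2* at 3323 in sample 11, *Eed* at 54.3, *Ezh1* at 47.3 and *Jarid2* at 25.6, and *Smarca5* is listed at 1. Sample 11 shares its high total count with the High samples, and the part of RNA quality and depth in the members' pattern was not tested. With sample 11 among the adult samples, limma called 5 members higher in High (*Brd2*, *Setd1b*, *Sin3a*, *Suz12* and *Wdr5*) and 0 lower, where it called 49 of all 770 genes, all of them higher. An unadjusted p under 0.05 was reached by 16 members and by 150 genes of the panel, and an adjusted p of 0.05 by 0 genes of the panel. edgeR called 1 member (*Setd1b*), where it called 27 of all 770 genes. Of the 3 members called between Low and adult, limma then called only *Kdm5b*, lower, among 34 genes called over the panel.

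Since the scaling multiplies all genes of a sample by 1 factor, it cancels in the ratio of 2 genes within a sample. Ratios were taken for all 42 pairs of members that belong to 1 family or complex, a choice made after the values were seen. Between High and Low, 16 pairs had both genes above background in every sample, and the ratio did not overlap between the groups in 13 of them (81.3%), where 62.2% of all such gene pairs of the panel did not. The share was 3 of 16 (18.8%) between Low and adult, against 53.3% for the panel, and 15 of 19 (78.9%) between High and adult, against 61.9%.

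The widest gap lay inside Polycomb repressive complex 2. The log2 ratio of *Suz12* to *Eed* counts was 2.80, 4.55, 3.45 and 3.58 in High samples 2, 5, 7 and 8, -0.29, -0.16, 0.30 and 0.45 in Low samples 3, 6, 9 and 12, and 0.16, 0.38 and 0.03 in adult samples 1, 4 and 10. Low and adult samples overlapped, and every High sample lay above both, with a mean shift of 3.52 on the log2 scale over Low. The 2 probes may differ in efficiency, so only the shift between groups is read from the ratio. Sample 11 stood with the High samples at 4.49. The ratio of *Suz12* to *Ezh2* moved by 2.61 between Low and High.

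In the BET family *Brd2* gained on *Brd3* by 2.58 on the log2 scale in High over Low. Between the H3K4 methyltransferases the log2 ratio of *Setd1a* to *Setd1b* went from 0.49 ± 0.29 (SD, n = 4) in Low to -1.99 ± 0.35 (SD, n = 4) in High, and that of *Kmt2a* to *Kmt2c* from -0.20 ± 0.26 to -2.08 ± 0.26. For the acetyltransferases *Crebbp* to *Ep300* it went from 0.04 ± 0.08 to -1.23 ± 0.17. In SWI/SNF the ratio of *Smarca4* to *Arid1a* went from 1.31 ± 0.24 to -1.47 ± 0.65. None of these ratios overlapped between High and Low. The pairs *Kdm5a* to *Kdm5c* (-0.26) and *Smarca4* to *Smarca5* (0.17) overlapped.

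**Figure D3:**
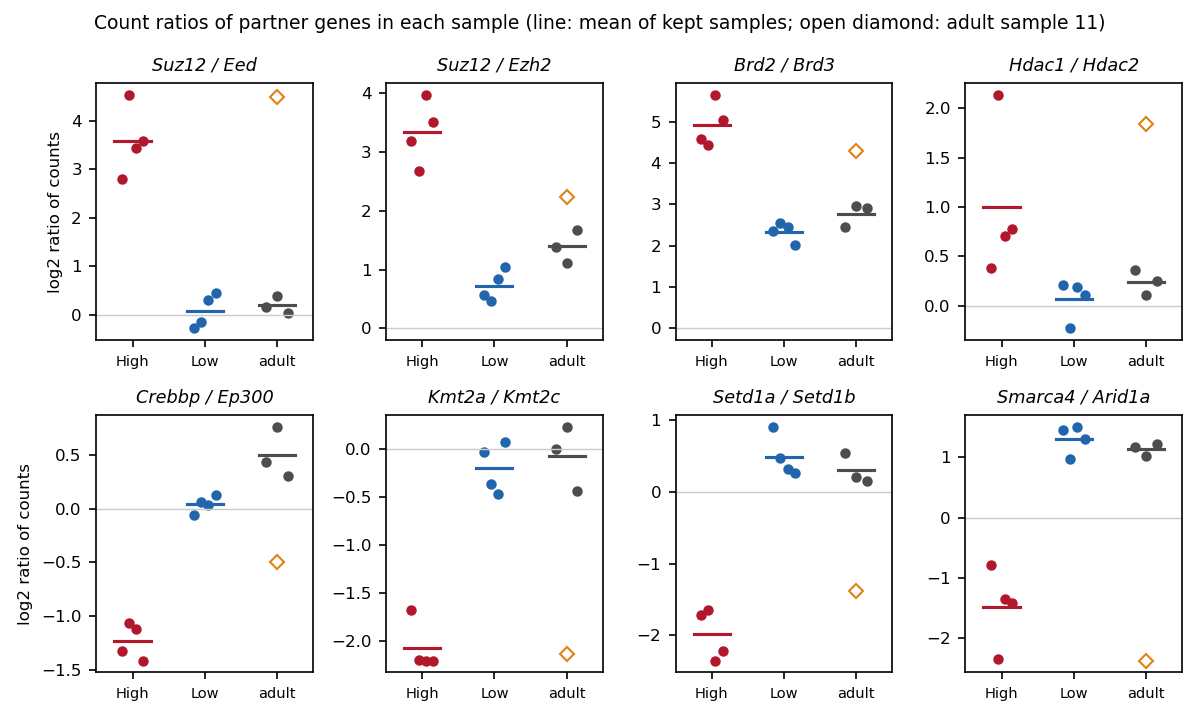
Log2 ratio of the counts of partner genes in each sample of the P-ERK1/2 High, P-ERK1/2 Low and adult groups. Dots are samples, lines the means of the kept samples and open diamonds adult sample 11. In all 8 pairs the High samples are apart from the Low samples, and for *Suz12* over *Eed* they lie between 2.80 and 4.55 where the Low and kept adult samples lie between -0.29 and 0.45.

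The size of a member's change depended on the scaling between samples. As deposited, the calls of High over Low were 21 higher and 4 lower. Scaling by the 6 most stable housekeeping genes gave 25 and 0, quantile normalization 18 and 8, median-of-ratios scaling 21 and 6, scaling to the total count 7 and 24, unscaled counts 50 and 0, counts scaled by the positive controls 51 and 0, and subtraction of background 28 and 0. Over all genes the splits were 217 and 74 as deposited and, in the same order, 310 and 8, 146 and 142, 177 and 121, 59 and 311, 595 and 1, 659 and 0, and 281 and 116. The median of all genes in these settings was 0.80 for the 6 housekeeping genes, -0.10 for quantile normalization, 0.00 for median of ratios, -0.74 for the total count, 1.86 for unscaled counts, 2.15 for the positive controls and 0.87 after subtraction of background. The members' medians were 0.94, 0.03, 0.14, -0.61, 1.98, 2.26 and 1.36. All 4 falls had log2 fold changes above 0 in unscaled counts and under positive-control scaling, *Eed* at 0.49 and 0.79, *Smarca4* at 0.65 and 0.96, and *Smarca5* at 0.48 and 0.79, and *Ezh1* likewise with no Low sample above background, so a fall here is one relative to the scaling between samples. With the 6 most stable housekeeping genes the 4 calls were lost, with *Eed* at -0.64, *Smarca4* at -0.48 and *Smarca5* at -0.65. The 4 stayed called lower with median of ratios, after quantile normalization and at the total count. *Brd2*, *Dnmt3a*, *Kdm2b*, *Kdm5b*, *Suv39h2* and *Suz12* were called higher over Low under every alternative in which they were tested, also when scaled to the total count.

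For High over adult the splits were 27 higher and 0 lower with the 6 housekeeping genes, 16 and 9 with median of ratios and with edgeR's TMM, 11 and 11 after quantile normalization, 1 and 28 at the total count, 27 and 0 unscaled, 33 and 0 with the positive controls and 21 and 0 after subtraction of background, against 21 and 4 as deposited. Over all genes they were 340 and 8 with the 6 housekeeping genes, 164 and 114 with median of ratios, 159 and 121 with TMM, 142 and 139 after quantile normalization, 40 and 363 at the total count, 347 and 2 unscaled, 420 and 1 with the positive controls and 232 and 14 after subtraction of background, against 225 and 59. For Low over adult the members' splits were 0 and 23 unscaled, 0 and 20 with the positive controls, 0 and 3 at the total count and with TMM, 0 and 2 with median of ratios and after quantile normalization and 0 and 5 after subtraction of background, against 1 and 2 as deposited. Over all genes they were 8 and 232 unscaled, 8 and 218 with the positive controls, 24 and 59 at the total count, 42 and 30 with TMM, 51 and 27 with median of ratios, 52 and 35 after quantile normalization and 47 and 42 after subtraction of background, against 62 and 21.

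**Figure D4:**
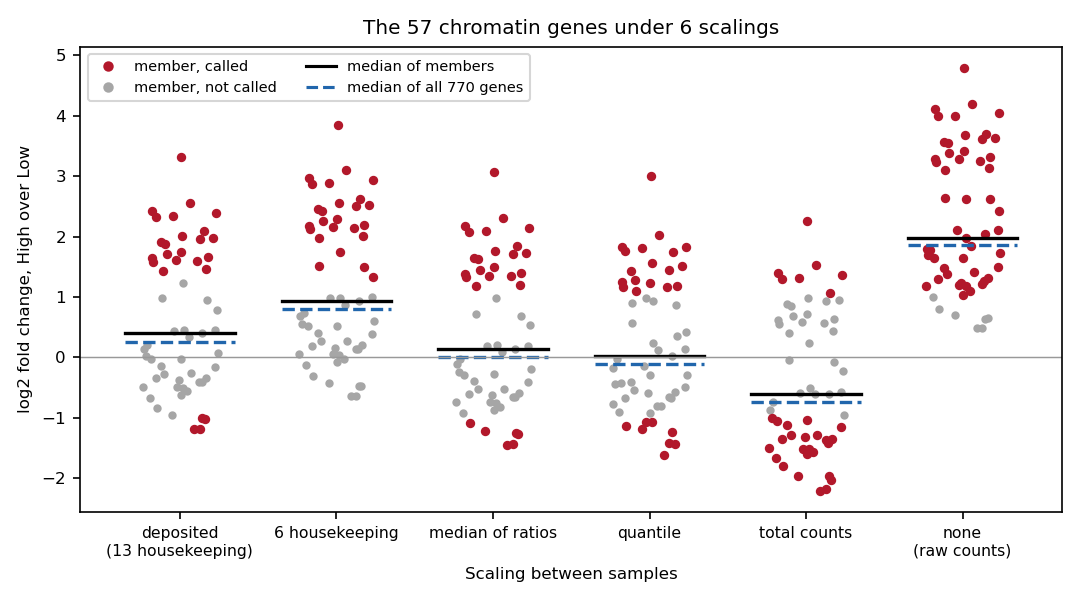
Log2 fold change of High over Low for the 57 members under 6 scalings of the counts. Each dot is a gene, red when called, the solid line is the median of the members and the dashed line the median of all 770 genes. Both medians move together, from -0.61 and -0.74 at the total count to 1.98 and 1.86 without scaling.

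Of 14 other genes of the panel that act on chromatin and that the symbol rule leaves out, 4 (28.6%) were called higher in High over Low, near the 28.2% of all genes, and 0 lower. They were *Supt7l*, a subunit of the SAGA acetyltransferase complex (3.34), *Bmi1*, a subunit of Polycomb repressive complex 1 (2.51), the chromatin protein *Hmgb1* (1.31) and the histone variant gene *H2afx* (1.18), which was also called higher in Low over adult (1.01). *Supt7l* and *Bmi1* were each above background in 1 of 4 Low samples. The acetyltransferases *Kat2a* (-0.84) and *Kat2b* (-0.27), the SAGA subunit *Tada2b* (-0.52), *Hells*, *Hira*, *Hist1h1d*, *Smc1a*, *Tle3*, *Parp1* and *Padi2* were not called. *Supt7l* and *Tada2b* are themselves among the 13 housekeeping genes of the scaling, and *Supt7l*, at 792 ± 97.5 (SD, n = 4) in High and 77.5 ± 9.30 (SD, n = 4) in Low, had the least stable ratios to the other 12.

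The X-linked members *Kdm6a* and *Kdm5c* have Y-linked partners on the panel, *Uty* and *Kdm5d*. *Uty* had 34.1, 30.7, 131 and 36.7 in High samples 2, 5, 7 and 8 and 5.35 to 24.5 in Low. It passed the limits of a call (adjusted p = 0.00818 in limma), but no Low value was above background and the Low backgrounds of 69.2 to 117 exceed 3 of the High values, so no rise is bounded. *Kdm5d* was not called (13.4 to 34.8 in High, 12.3 to 32.1 in Low). Each sample pooled a male and a female, and the share of RNA from each was not measured here.

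Markers of astrocytes and endothelium were called higher in High over Low more often than the panel's 28.2%, at 3 of 6 and 4 of 6, and those of neurons, border macrophages, T and NK cells, B cells, oligodendrocytes and neutrophils near that share or below it. The summed value of 6 astrocyte markers was 1412 to 2143 in High, 581 to 833 in Low and 467 to 677 in adult samples, with 3 of the 6 called higher in High over Low. For 6 endothelial markers the sums were 622 to 1257, 207 to 312 and 286 to 413, with 4 called higher, for 15 T and NK cell markers 407 to 1283, 257 to 368 and 213 to 440, with 3, and for 11 neuronal markers 414 to 637, 297 to 382 and 274 to 402, with 3 higher and 2 lower. For 7 markers of border macrophages and monocytes the sums were 370 to 592, 214 to 301 and 225 to 356, with 2 called higher. Of the oligodendrocyte, B cell and neutrophil lists 0, 1 and 0 markers were called higher. In Low samples 10 of 11 neuronal, 5 of 6 endothelial and 15 of 15 T and NK cell markers were above background in no sample. The 13 microglial markers summed to 10753 to 16030 in High, 17921 to 22119 in Low and 12365 to 14819 in adult samples, although 4 of them were called higher and 1 lower in High over Low, and 0 higher and 3 lower in Low over adult. The part of other cell types in the members' values was not tested.

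The members together took 2.28 to 3.31% of all gene counts in the High samples, 2.62 to 2.76% in the Low samples and 3.36 to 3.68% in the adult samples. Every aged sample, High or Low, thus gave a smaller share of its counts to these genes than any kept adult sample. Sample 11 was at 2.46%.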

How the data were processed

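RNA of 12 pooled samples was hybridized to a NanoString panel for neuroinflammation with probes for 757 endogenous and 13 housekeeping genes. The authors scaled them in nSolver (version not given in the sources used here). The deposited values are a signal per gene and sample, in which every count of a sample is multiplied by the same factor so that all samples share the geometric mean of the 13 housekeeping genes, without subtraction of background. Control probes are deposited in the same table as unscaled counts. All 12 columns were mapped to samples by column name, and 0 columns were left unmapped. Division by the worth of 1 count gave back counts, and 99.8% of gene values were whole to within 0.1. These recovered counts gave the depth per sample (totals 123798 to 1539936) and the background, and the precision of a comparison rests on 3 or 4 samples a group.

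The 57 members were found by a rule on gene symbols, and 57 of 57 matched RefSeq symbols. The members, roles and lists were chosen with earlier results of these data known. Each of the 3 comparisons was fitted with limma 3.58.1 (R 4.3.3) after adding a pseudocount of 1 and taking log2, over 770 genes with no filter, two-sided, with only its own groups and Benjamini-Hochberg adjustment over all genes. The limits of a call, 0.01 for p and 1 for the log2 change, follow the study. Where no sample of a group exceeded background, a bound on the rise was computed against whichever was higher in each such sample, its background or its value. Results of 2 members are not reported by name here, though both stay in the counts. Genes named are the other members, the 14 other chromatin genes, *Uty* and marker genes, and values of every sample are given for the 5 largest rises and falls in High over Low, for members called in Low over adult and, added after the values were seen, for *Suz12*, *Suv39h2* and *Jarid2*.

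Alternatives included a pseudocount of 0.1 or 20, a filter at a mean of 50, a floor of 20 counts, other scalings, a shared spread, other call rules, edgeR 4.0.16 with the deposited scaling or TMM, each sample left out in turn and sample 11 added. Positive-control scaling, subtraction of background, a background filter, edgeR with sample 11 and an unadjusted p under 0.05 were added after the data were seen. Protein sequences and probe target sequences were not used here.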

Additional observations from a re-analysis of the deposited data

Results flagged for a closer look

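In groups of 4 samples, the highest or lowest log2 value stood apart from the other 3 by more than Dixon's limit allows for its share of the group's range in 3 of 114 member and group combinations, and chance flags about 1 in 20. *Dnmt3b*, a methyltransferase of cytosine, was at 20.3 in P-ERK1/2 High sample 8 against 32.2 to 34.1 in the other High samples. The background of sample 8 was 26.1, and *Dnmt3b* was above background in 1 of 4 High samples. *Jarid2*, the accessory Polycomb subunit, was at 22.9 in High sample 5, below that sample's background of 26.9, against 47.5 to 53.9 in the others. The same sample 5 had the lowest *Eed*, *Smarca4*, *Smarca5* and *Hdac2* values of the group. *Kdm4a*, a demethylase of H3K9 and H3K36, was at 140 in P-ERK1/2 Low sample 6 against 193 to 205.

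Adult sample 11, labelled as excluded for poor quality and used in no main comparison, lay above every kept adult sample for 40 of the 57 members.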

How the results depend on the processing

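No paired analysis was possible because the sample numbers of the groups are all different and no label links a High sample to a Low sample. Between P-ERK1/2 High and Low, 25 members were called, and 22 to 28 with each sample left out in turn (21 to 24 higher and 1 to 4 lower). The count moved by over 1.5 times in unscaled counts (50) and under positive-control scaling (51), both with all called members higher, and stayed within that range under the other alternatives, at 22 to 36. A like count did not mean like calls. At the total count 31 were called, 7 higher and 24 lower, and 11 of the 31 were among the 25. Over all genes 291 were called as deposited, 596 unscaled, 659 with the positive controls and 370 at the total count. Between Low and adult, 3 members were called, 1 to 2 with each sample left out (1 without adult sample 1 and 1 without Low sample 9), 0 with a pseudocount of 20 (19 members then had an unadjusted p under 0.05 in limma and edgeR called 2 to 3), 1 with the floor of 20 counts, 23 unscaled, 20 with the positive controls, 5 after subtraction of background, 7 at an adjusted p under 0.05 without a fold limit, 16 at an unadjusted p under 0.05, and 1 with sample 11 added, in limma and in edgeR. Over all genes, Low against adult gave 83 calls as deposited, 60 with the pseudocount of 20 and 58 with the floor. Unscaled counts gave 240, the positive controls 226 and subtraction of background 89. The p rules without a fold limit gave 201 (adjusted) and 302 (unadjusted). Adding sample 11 gave 34 in limma and 31 in edgeR. Between High and adult, 25 members were called, 22 to 26 with each sample left out, 5 with sample 11 added and 1 in edgeR with it. Over all genes 284 were called, 49 with sample 11 added and 27 in edgeR with it. The signs of called members turned in few cases. Those of *Eed* (0.49 and 0.79), *Ezh1* (0.64 and 0.94), *Smarca4* (0.65 and 0.96) and *Smarca5* (0.48 and 0.79) in High over Low turned in unscaled counts and with the positive controls, and that of *Ezh1* after subtraction of background (1.16), where no Low sample bounds the *Ezh1* values. In High over adult, *Ezh1* turned with the positive controls (0.0942), *Smarca5* with sample 11 (0.70, where its value is listed at 1), and *Kdm1a* (-0.0751), *Kdm3a* (-0.37), *Kdm4b* (-0.11), *Setd2* (-0.25) and *Sirt1* (-0.24) at the total count. *Kdm4d* turned in Low over adult after subtraction of background (0.59). The cause was not tested. There were 10 members that no Low sample measured above background, and depth and group cannot be told apart there. With members required to exceed it in at least 1 sample of each group, 22 of 47 were called in High over Low, all 22 of them among the 25. Of the panel 204 of 492 genes were called under that filter.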
